A study of Homo sapiens with 3 samples.

Results

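MALAT1 and NEAT1 are a pair of long noncoding RNAs made from neighbouring genes on human chromosome 11, and the values below describe where an eCLIP of the nuclear receptor PXR placed peaks along them. A peak was counted for a gene when its centre lay in the gene's span in the gene table of NCBI RefSeq for GRCh38.p14, the same coordinates as hg38. By this rule 17 of the 21031 deposited peaks belonged to the pair, 8 in MALAT1 and 9 in NEAT1. The rule for placing peaks used position, and neither depth nor fold. The pair itself was chosen with earlier results of these data known, and every listed peak had passed the caller's threshold. The pair's ranks by depth below are therefore descriptions. The study has 2 libraries of the immunoprecipitate (IP) and 1 input library. All 3 came from LS174T, a human colon adenocarcinoma line with goblet-like features. The cells of all libraries, the input included, had been transfected for 24 h with mouse Pxr carrying an HA tag, and 20 M cells per reaction were crosslinked with 254 nm light at 400 mJ/cm2. In eCLIP, RNA crosslinked to a protein is cut into fragments, precipitated with the protein and sequenced. Antibodies to PXR and to HA and a control IgG are listed in the protocol, and the sources used here do not tie them to libraries. The receptor was expressed from a construct, so its level need not be that of the cells' own protein.

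The deposited data analysed here are 1 list of peaks from the IP, with no values of single libraries. No value below therefore has a replicate error, no test between IP and input was made, and RNA abundance and binding cannot be told apart. Intervals are 95% Poisson intervals for counts and Wilson intervals for shares. Both cover counting error alone, as PCR copies are not separate molecules. The cell type was checked against markers: 9 of 10 colon epithelial genes and 4 of 5 goblet genes held a peak, and none of 12 markers of hepatocytes, blood, fibroblasts and endothelium did (0%, Wilson interval up to 24.2%). Over all 20033 coding genes 41.6% held a peak centre. KRT20 and SPDEF were the epithelial and goblet markers without a peak centre.

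As background, MALAT1 is among the most abundant noncoding RNAs of many cell types and gathers in nuclear speckles, bodies rich in splicing factors. NEAT1 is the RNA scaffold of paraspeckles, nuclear bodies built on its long isoform. A short NEAT1 isoform shares the start of the gene and ends at a polyadenylation site within it. The long NEAT1 isoform and MALAT1 end differently from most transcripts: RNase P cuts the precursor beside a tRNA-like element, and the new end is protected by a triple helix. At MALAT1 the released element is a small RNA called mascRNA. The peak list cannot show where in the cell the fragments came from.

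RefSeq gives 2 start windows for MALAT1, each of 250 bases before and 50 bases from a start, and they are shown because the peaks lay downstream of both. In the sequences below (RefSeq, GRCh38.p14, plus strand, 5′ to 3′) the final 50 capitals mark the bases from the annotated start, and the capitals before them in the second sequence mark a TATAAA motif. The first window is chr11:65497488-65497787 and the second is chr11:65498795-65499094.
MALAT1 first start: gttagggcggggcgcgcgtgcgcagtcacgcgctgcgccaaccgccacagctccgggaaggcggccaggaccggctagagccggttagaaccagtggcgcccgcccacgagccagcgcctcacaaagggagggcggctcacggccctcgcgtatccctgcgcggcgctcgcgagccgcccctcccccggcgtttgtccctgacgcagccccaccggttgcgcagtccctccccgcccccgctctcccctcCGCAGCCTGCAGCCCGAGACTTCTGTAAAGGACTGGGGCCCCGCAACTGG
MALAT1 second start: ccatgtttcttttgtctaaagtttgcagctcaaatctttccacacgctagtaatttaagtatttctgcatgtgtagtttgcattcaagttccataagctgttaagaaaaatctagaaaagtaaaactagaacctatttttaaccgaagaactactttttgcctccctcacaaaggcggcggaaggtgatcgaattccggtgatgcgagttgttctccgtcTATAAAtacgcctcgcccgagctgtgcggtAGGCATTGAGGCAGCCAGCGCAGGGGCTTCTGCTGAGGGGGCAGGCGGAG
The windows differ in composition. The first has 73.7% G and C with 37 CpG dinucleotides, and the second 46.0% with 14, against medians of 58.7% and 14 over all 35116 windows of the table. Motifs were searched on both strands, and no match of one overlapped a match of another. TATAAA occurred 1 time in the second window, beginning 30 bases before the start, and not in the first, and 11.5% of all windows held it. GGGCGG occurred 2 times on the plus strand and 3 times on the minus strand of the first window and not in the second, and 45.0% of all windows held it. CCAAT was in neither window, against 34.6% of all. A match is a description of the letters, not a binding site.

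MALAT1 carried deep plus-strand peaks from shortly after its second start to the edge of mascRNA. Its span is chr11:65497738-65506516, 8779 bases, and its 8 peaks were all on the plus strand, the strand of the gene. Only 6.21% of the 18303 lncRNA genes of the table held a peak centre, and both members were among these 1137 genes. The summit reads given below were computed from the deposited fold and −log10 p, which together fix a whole number. The fold is the caller's ratio of the reads at a summit to the reads expected from the surrounding 10 kb, each with 1 added. A fold thus compares a summit with its own neighbourhood and not with the input.

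From 5′ to 3′, the first MALAT1 peak, chr11:65499354-65499556, held 780 reads at its summit (Poisson interval 726 to 837) at a fold of 1.53. It began 1616 bases after the first RefSeq start and 309 bases after the second. It had the lowest fold of all 20919 peaks on chromosomes 1 to 22, X and Y and yet ranked 36 among them by summit reads. The second peak, chr11:65500359-65501157, had 1904 reads (1819 to 1991) at a fold of 2.73. The third, chr11:65501238-65501917, had 1951 reads (1865 to 2040) at a fold of 2.70. The fourth, chr11:65502033-65502379, had 1888 reads (1804 to 1975) at a fold of 2.61. These 3 adjoining summits had overlapping intervals, so their depths could not be told apart by these counts.

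In the 3′ part of MALAT1 the depth was uneven. The fifth peak, chr11:65503059-65503624, had 2183 reads (2092 to 2277) at a fold of 3.02. The sixth, chr11:65504396-65505007, had 1336 reads (1265 to 1410) at a fold of 1.99. The seventh, chr11:65505143-65505813, was the deepest, with 3528 reads (3413 to 3646) at a fold of 5.55, and ranked 9 by summit reads among all peaks of those chromosomes. Its summit stood 1143 bases before the gene's annotated end. The eighth and last, chr11:65505892-65506114, had 1039 reads (977 to 1104) at a fold of 1.88. The intervals of the sixth, the seventh and the eighth summits did not overlap, and the seventh summit was 4.52 times as deep as the first, the shallowest.

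**Figure D1:**
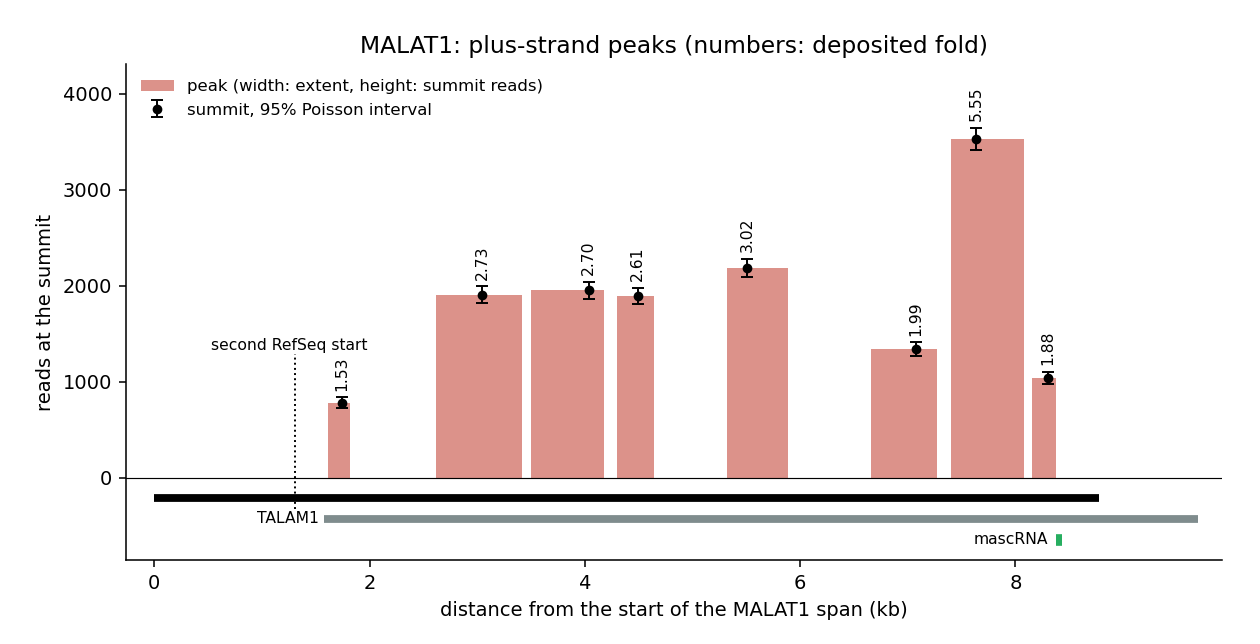
Peaks along MALAT1, with the distance from the start of its span in kb on the horizontal axis and reads at the summit on the vertical axis; bars span each peak, points mark summits with 95% Poisson intervals, numbers are deposited folds, and the lines below show the MALAT1 span (black), TALAM1 (grey) and mascRNA (green). The 8 peaks lie between the second RefSeq start and mascRNA, and the seventh stands highest at 3528 reads.

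The last MALAT1 peak ended next to the site at which the RNA is cut. The table places mascRNA (MASCRNA, 58 bases) at chr11:65506117-65506174. Only 2 bases lay between the end of the eighth peak and the first base of mascRNA, and the eighth summit was 76 bases before it. Peak edges come from reads extended to 200 bases, so they do not place read ends to the base. No peak centre lay in mascRNA or in the rest of the span downstream of it. Per the labels, library DNA of 175 to 300 bp was kept after 9 to 18 PCR cycles. The antisense gene TALAM1 spans chr11:65499312-65507432 and overlaps MALAT1 over 7205 bases. All 8 MALAT1 peaks lay in it too, all on the plus strand, and no minus-strand peak lay anywhere in TALAM1. The peaks were therefore on the strand of MALAT1 RNA.

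NEAT1 was split into a deep start and a shallower remainder. Its span is chr11:65422798-65445540, 22743 bases, and its 9 peaks were also all on the plus strand. The first, chr11:65422948-65424699, was the widest peak of either gene at 1752 bases and had 920 reads at its summit (862 to 981) at a fold of 6.01. The second, chr11:65425232-65425777, had 643 reads (594 to 695) at a fold of 3.95. Both peaks ended within 2979 bases of the gene's start, in the part that the short and long isoforms share.

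No peak then followed for 9755 bases, and the remaining 7 lay in the part that belongs to the long isoform. The local background per 200 bases was 152 and 162 reads at the first 2 summits and 36.0 to 52.7 at the other 7. The depth needed for a peak thus differed along the gene, and a stretch without peaks need not have fewer reads. The third, chr11:65435533-65435851, had 139 reads (117 to 164) at a fold of 3.10, and the fourth, chr11:65436081-65436450, had 118 reads (97.7 to 141) at 2.59. The fifth, chr11:65438074-65438320, had 127 reads (106 to 151) at a fold of 2.38. The sixth, chr11:65441894-65442615, was the deepest of these 7, with 177 reads (152 to 205) at a fold of 3.38. The long-isoform summits spanned 118 to 177 reads, a ratio of 1.5, and the interval of the sixth overlapped that of the third but not those of the fourth and the fifth.

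The last 3 NEAT1 peaks crowded the 3′ end. The seventh, chr11:65443593-65444064, had 132 reads (110 to 157) at a fold of 2.998. The eighth, chr11:65444387-65445072, had 127 reads (106 to 151) at a fold of 3.12 and covered the microRNA gene MIR612 (chr11:65444458-65444557), with its summit 61 bases past that gene's end. The ninth, chr11:65445191-65445524, had 121 reads (100 to 145) at a fold of 3.30 and stopped 16 bases before the annotated end of NEAT1. In both genes the last peak, as called from extended reads, thus ended close to the annotated or cut 3′ end. The peaks within the first 4 kb held 1563 of the 2504 summit reads of NEAT1 (62.4%, Wilson interval 60.5 to 64.3%), and the other 7 held 941. The lower of the 2 upstream summits was 3.63 times as deep as the highest of the other 7.

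**Figure D2:**
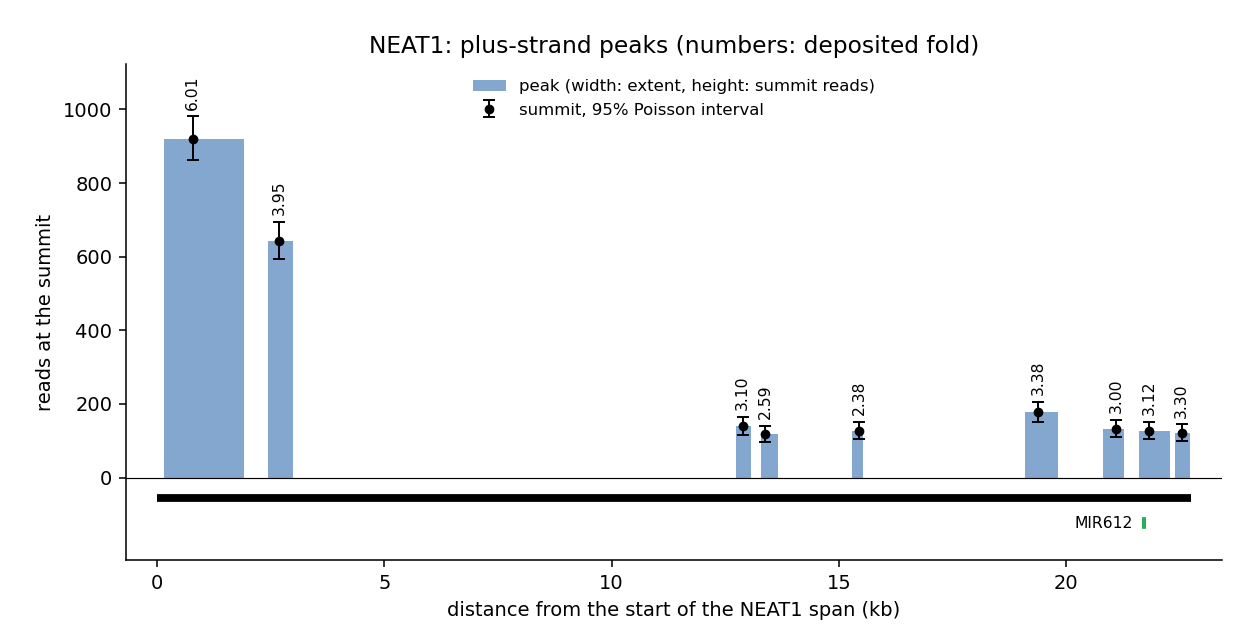
Peaks along NEAT1, drawn as distance from the start of its span in kb against reads at the summit; bars span each peak, points mark summits with 95% Poisson intervals, numbers are deposited folds, and the lines below show the NEAT1 span (black) and MIR612 (green). Summits of 920 and 643 reads stand at the start, and 7 summits of 118 to 177 reads follow after a stretch of 9755 bases with no peak.

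MALAT1 and NEAT1 differed in depth more than in the number of peaks. The summed summit reads were 14609 in MALAT1 (14373 to 14848) and 2504 in NEAT1 (2407 to 2604), a ratio of 5.83. Summits within each gene stood at least 453 bases apart in MALAT1 and 498 in NEAT1, farther than the 200 bases to which the caller extends a read, so these sums count each read 1 time. MALAT1 had 9.11 peaks per 10 kb of gene and NEAT1 3.96. Peaks covered 4101 bases of MALAT1 (46.7% of its span) and 5448 bases of NEAT1 (24.0%). The shallowest MALAT1 summit was deeper than every NEAT1 summit except the first, with 780 reads against 920. Median folds were close, at 2.66 in MALAT1 and 3.12 in NEAT1, and the highest were 5.55 and 6.01.

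The recovered background gives a second measure, the reads in the 10 kb around each summit. At MALAT1 a single such window, centred on the fourth summit, contained the whole gene and held 36104 plus-strand reads (35733 to 36478), or 4113 per kb of the span. For NEAT1, 3 windows that follow each other with a gap of 195 bases and an overlap of 346 bases held 12114 reads in all (11899 to 12332), or 533 per kb. MALAT1 thus had 2.98 times the reads of NEAT1 in all and 7.72 times per kb. With the caller's preset genome size of 2700000000 bases, if that was used, the common background level stands for 3.86 M plus-strand reads, of which the MALAT1 window would be 0.935% and the NEAT1 windows 0.314%. The summits themselves held 40.5% of the window reads at MALAT1 and 20.7% at NEAT1. Most of the reads over both RNAs were therefore outside the summits.

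Windows that reach past a gene's ends by different amounts also divide the reads along it, provided that the flanks hold few reads, and no plus-strand peak lay in the 52.2 kb between the 2 genes. By such differences the upstream section of MALAT1, chr11:65497738-65501040, held 8481 reads (8301 to 8663), or 2568 per kb. The middle section, chr11:65501041-65504483, held 16909 (16655 to 17166), or 4911 per kb. The downstream section, chr11:65504484-65506516, held 10714 (10512 to 10919), or 5270 per kb. Counted from the second RefSeq start, the upstream section had 4249 reads per kb. The upstream section was the least covered of the 3 per kb with either start.

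NEAT1 was most covered in its upstream window. That window, clipped to the gene at chr11:65422798-65430484, held 8102 reads (7927 to 8280), or 1054 per kb of gene. The middle window, chr11:65430680-65440680, held 2211 (2120 to 2305), or 221 per kb, and the downstream window, clipped at chr11:65440334-65445540, held 1801 (1719 to 1886), or 346 per kb. Per kb the upstream window had 4.77 times the reads of the middle one. The stretch without peaks was not free of reads. The windows of the first and second summits differ by 493 reads (450 to 539), which is the excess of chr11:65428587-65430484, inside that stretch, over an equal length upstream of the gene, or 260 per kb.

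**Figure D3:**
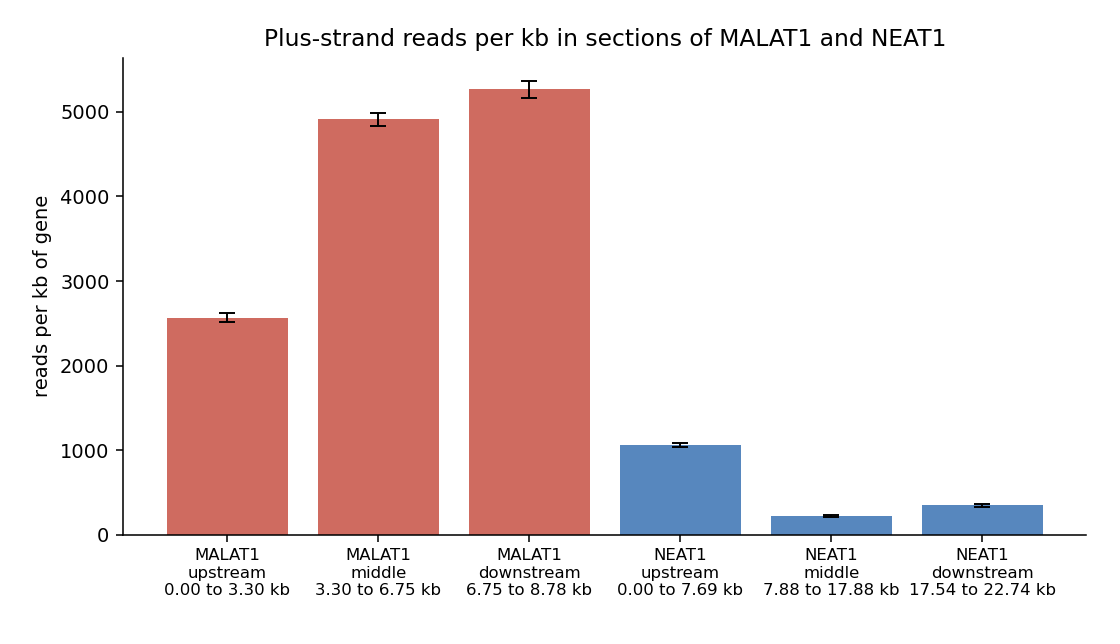
Plus-strand reads per kb of gene (vertical axis) in 3 sections of MALAT1, from differences of 10 kb windows, and in 3 windows of NEAT1, each labelled with its distance from the gene's start in kb; error bars are 95% Poisson intervals of the read counts. MALAT1 has 2568 to 5270 reads per kb, and NEAT1 has 1054 in its upstream window and 221 and 346 in the others.

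Against the whole list, both RNAs combined great depth with low fold. Of the 17 member peaks 9 had a fold under 3, against 2.28% of all peaks on chromosomes 1 to 22, X and Y, and 1 had a fold above the list's median of 5.98. By contrast 7 of the 8 MALAT1 peaks had over 1000 summit reads, against 0.129% of all peaks (27 of 20919), and no NEAT1 peak did. These thresholds were chosen after the values were seen. The other 20 peaks with over 1000 reads had a median fold of 47.9. All 5 peaks of the list with over 1000 reads and a fold under 3 were in MALAT1. Every NEAT1 summit was among the deepest 2.94% of peaks, where the median is 21 reads and the quartiles are 14 and 35 reads. Since the fold sets a summit against its own 10 kb, the first MALAT1 summit had a fold above 1 while holding 0.948 times the mean depth of the gene, which is 823 reads per 200 bases of the span.

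**Figure D4:**
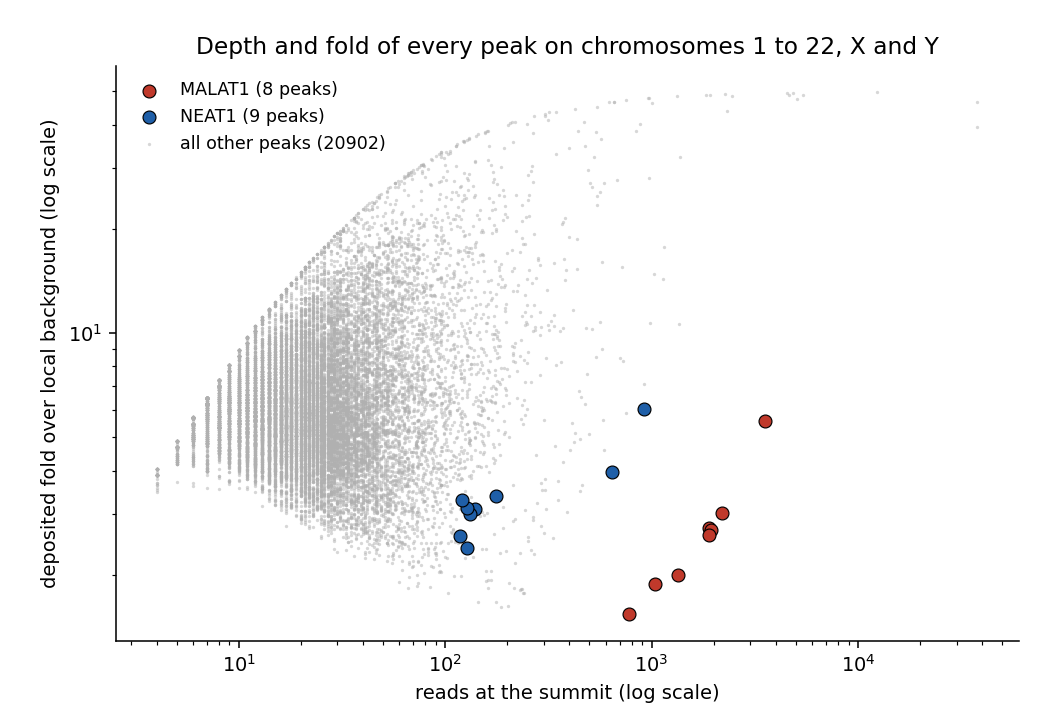
Reads at the summit (horizontal, log scale) against deposited fold (vertical, log scale) for every peak on chromosomes 1 to 22, X and Y, with MALAT1 in red, NEAT1 in blue and all other peaks in grey. The MALAT1 peaks lie at the lower right edge, at 780 to 3528 reads and folds of 1.53 to 5.55, and 7 of the 9 NEAT1 peaks lie between 118 and 177 reads.

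Ranked by reads in 10 kb, MALAT1 was the third locus on chromosomes 1 to 22, X and Y and the start of NEAT1 the fifth. Peaks on 1 strand with summits up to 10 kb apart were joined, which gave 13579 loci. The 7 downstream NEAT1 peaks formed a locus of their own, with at most 2636 reads in 10 kb. Above MALAT1, with its 36104 reads, stood only RPPH1, the RNA of RNase P, with 48131 reads and RMRP, the RNA of RNase MRP, with 40424. Between MALAT1 and NEAT1, with its 8102, stood a single peak in SYCP2L with 12392 reads. The deepest summit held 9.77% of the window reads at MALAT1 and 11.4% at NEAT1, against 78.7% at RPPH1, 92.9% at RMRP and 99.9% at SYCP2L. Below NEAT1 came ONECUT3 with 6766 reads, GAS5 with 6391, EEF2 with 6300 and PLEC with 6194. Their deepest summits held 6.33% of the window reads at ONECUT3, 21.2% at GAS5, 11.6% at EEF2 and 4.84% at PLEC. The low shares at MALAT1 and NEAT1 were thus shared with other loci of several peaks and were not particular to the pair, while at RPPH1, RMRP and SYCP2L, with 1 peak each, most reads lay under the summit.

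**Figure D5:**
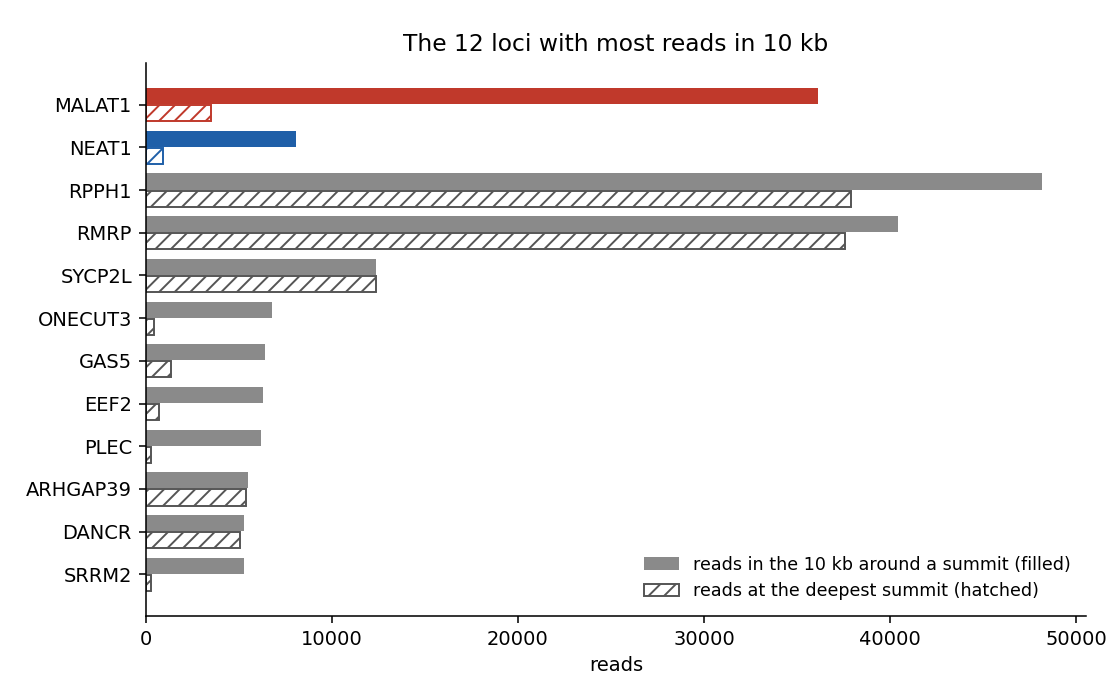
The 12 loci with the most reads in the 10 kb around a summit, with reads on the horizontal axis; filled bars are the window reads and hatched bars the reads at the locus's deepest summit, with MALAT1 (red) and NEAT1 (blue) above the other 10 loci (grey). The hatched bar is a small part of the filled one at MALAT1 (3528 of 36104) and NEAT1 (920 of 8102).

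Among the 1137 lncRNA genes with a peak, MALAT1 had the most summed summit reads and NEAT1 the fourth most, after DANCR with 5090 and GAS5 with 4447 in 6 peaks, against a median of 20. By their highest single summit they ranked 2 and 11, and by number of peaks 7 and 4. By highest fold they ranked 787 and 690, so the order depends on the measure. Over genes of every class with a peak, 10359 in all, they ranked 3 and 19 by summed reads. Among lncRNA genes counted from peaks in no other gene, the 5 deepest outside the pair were DANCR with 5090 reads in 1 peak, LOC107985958 with 2270 in 1, GAS5 with 1949 in 3 of its 6, LINC00673 with 1194 in 19, and TRIM52-AS1 with 1009 in 1. The peaks of DANCR, LOC107985958 and TRIM52-AS1 had folds of 47.5, 48.9 and 46.2. LINC00673 had a median fold of 2.71 over its 19 peaks, near the 2.66 of MALAT1, at a highest window of 1611 reads.

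The genes most like each member were sought by 3 measures, peaks per 10 kb, median summit reads and median fold, each on a log2 scale and divided by its SD over the 2894 genes with at least 3 peaks. TALAM1 was nearest to MALAT1, at a distance of 0.0666, because it holds the same 8 peaks. The next were the snoRNA host GAS5, at 2.99, and EEF2, the gene of a translation elongation factor, at 3.29. GAS5 had 6 peaks with a median of 670 reads and EEF2 had 7 with a median of 461, against 1896 in MALAT1. NEAT1 had closer counterparts, PYGB for a glycogen phosphorylase at 0.418, SRRM2 for a scaffold protein of nuclear speckles at 0.633 and SREBF1 for a sterol regulator at 0.642. Their medians were 151, 177 and 99.5 reads, against 132 in NEAT1. MALAT1 and NEAT1 lay 4.36 apart on this scale, farther than either lay from its named neighbours.

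Protein genes of the nuclear bodies that these RNAs occupy nearly all held a peak, at a fraction of the depth of MALAT1. Against these lists stand the 41.6% of all coding genes with a peak centre (8327 of 20033), and expression was not matched in any of these lists. Of 30 paraspeckle protein genes 29 held a peak (96.7%, Wilson interval 83.3 to 99.4%), all but TAF15, with a median of 40 reads and a median fold of 5.60 over 116 peaks. All coding-gene peaks had medians of 22 reads and 5.93. The deepest were in SFPQ, a core paraspeckle protein, with 175 reads at a fold of 9.92, the splicing regulators HNRNPH1 with 152 at 4.45 and HNRNPF with 134 at 9.06, and CIRBP, a cold-inducible RNA-binding protein, with 128 at 6.80. The HNRNPH1 peak also lay in LOC128966623. The deepest of the paraspeckle protein genes was thus below the first 2 NEAT1 summits and below every MALAT1 summit. It was within the range of the other 7 NEAT1 summits, 118 to 177 reads.

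Of 22 nuclear speckle protein genes 21 held a peak (95.5%, 78.2 to 99.2%), all but PRPF8, with a median of 33 reads and a median fold of 5.52. SRRM2 was deepest with 303 reads at a fold of 3.51, above the 7 downstream NEAT1 summits and below every MALAT1 summit. The SR splicing factors SRSF1, SRSF2 and SRSF5 followed with 124, 98 and 95 reads. The SRSF2 peak also lay in MFSD11. Of 14 genes for 3′ end maturation of MALAT1 and NEAT1, 8 held a peak, and among the 13 coding ones 7 did (53.8%, 29.1 to 76.8%). RPPH1, whose RNA is the catalytic part of RNase P, had 37893 reads at 1 summit. ELAC2, the enzyme that trims the 3′ end of mascRNA, had 39 reads, and the RNase P proteins POP7 and POP5 had 26 and 16. METTL16, which binds the MALAT1 triple helix, and TRNT1, which adds CCA ends, held no peak centre.

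Genes on a list of other lncRNAs with nuclear roles, drawn up from general knowledge, were far shallower than MALAT1 and NEAT1. Where their RNAs lie in LS174T was not tested, and not all need be confined to the nucleus. Of the 15 genes listed 8 held a peak, of which TUG1 is classed as coding in the table. Among the 14 classed as lncRNA genes 7 did (50%, 26.8 to 73.2%), against 6.21% of all lncRNA genes. Both shares count peaks on either strand, so a counted peak need not lie on the listed RNA. The 3 peaks in KCNQ1OT1 were all on the plus strand, and the deepest of them also lay in KCNQ1. The 34 peaks of the 15 genes had a median of 31 reads and a median fold of 4.02, against 19 reads and 5.85 over the 1684 peaks in lncRNA genes. LINC-PINT and PVT1 were deepest with 59 reads each, FTX and TUG1 had 52 each, and none of the list exceeded a window of 1122 reads. The lowest of the 17 member summits, 118 reads, was above all of these. HOTAIR, HOTTIP, MEG3, MIAT, CCAT1, CDKN2B-AS1 and OIP5-AS1 held no peak centre, which is not read as a lack of RNA or of binding.

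The neighbours were shallow beside the pair, though not beside the whole list. Within 100 kb of either gene the table has 22 other genes, of which 9 held a peak centre, against 17.4% of all 59675 genes. TALAM1 shares the MALAT1 peaks, and the other 8 had summits of at most 46 reads. The 19 peaks of these 8 genes had a median of 24 reads, against 21 over all peaks on chromosomes 1 to 22, X and Y. Plus-strand peaks lay in EHBP1L1 with 44 reads, FAM89B with 40, DPF2 with 25 and FRMD8 with 20. LTBP3 had 1 peak on each strand. MAP3K11, the gene of a signalling kinase, had 4 minus-strand peaks with up to 46 reads. The only peaks between NEAT1 and MALAT1 were 2 on the minus strand in the lncRNA gene ENEMAL, the deeper at chr11:65476589-65477103 with 15 reads (8.40 to 24.7) at a fold of 7.69. Its 10 kb held 54 reads, against 36104 at MALAT1 and 8102 at NEAT1.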

How the data were processed

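The authors trimmed, aligned and called peaks with cutadapt, BWA and MACS2 on hg38, per the submitters' processing notes; versions and settings, and whether the list joins both IP replicates, are not given in the sources used. Per the deposited peak names, peaks were called apart on each strand. The deposited columns are a fold (a ratio of summit to local background), −log10 p and −log10 q values of the caller, a score equal to the integer part of 10 times the −log10 q in all 21031 peaks, and the summit's distance from the peak start. From the deposited fold and −log10 p, the whole number of summit reads and the background were solved with SciPy 1.17.1 and NumPy 2.4.6. The deposited −log10 p was met within 0.1 of a read in 21027 peaks, all 17 member peaks included. Of the other 4, RPPH1 and RMRP are named, and their counts are less exact. In 20766 simulated peaks drawn around the real counts, 99.95% of summit and window counts were recovered exactly. The background times 50 was taken as the reads in 10 kb, which assumes that the caller did not use the input as control.

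Depth per library is not known from a peak list. Peaks on chromosomes 1 to 22, X and Y were placed in genes by centre. Since RefSeq gives no strand in the gene table, strand came from its promoter table, and for NEAT1 from general knowledge. Genes named were the members, the 3 most alike, the 5 deepest lncRNA genes, 4 per list and the neighbours with a peak, of which 1 is not reported here. The members and lists were chosen with earlier results of these data known. No test was made, because 1 list has no replicates. Alternatives covered peak placement, thresholds, width, strand, overlapping genes and the ranking measure. Leaving out replicates was not possible with 1 list. Values of single libraries were not used here.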

Additional observations from a re-analysis of the deposited data

How the results depend on the processing

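Of 76 values recomputed under alternatives, 63 stayed within the counting interval, the rank or the count of the reported value, and 13 moved. Placing peaks by summit or by any overlap of 1 base, keeping only plus-strand peaks, only peaks at or above the median −log10 q, or leaving out peaks at most 2 bases wider than the narrowest of 200 bases, moved no peak count, read sum, covered share or median fold of either gene. Every member peak was on the plus strand, at least 203 bases wide and above the median −log10 q. The strand, width and median alternatives therefore could not move these values, and their agreement is no sign of stability. With only peaks in no other gene, MALAT1 held 0 peaks, 0 reads and 0% coverage, since TALAM1 holds all 8. With antisense genes left out of the table, an alternative chosen after seeing the data, all 8 remained. With −log10 q of at least 20, NEAT1 had 7 of its 9 peaks, 2259 summit reads, 21.2% coverage and a median fold of 3.30. The fall from 9 to 7 peaks is counted among the 63, although the 7 are a part of the same list. By highest single summit the ranks among lncRNA genes were 2 for MALAT1 and 11 for NEAT1, and by highest fold 787 and 690. By number of peaks MALAT1 ranked 7. NEAT1 ranked 2 with only peaks in no other gene and 2 by reads in 10 kb, this measure chosen after seeing the data. The rank of MALAT1 with only peaks in no other gene could not be given. Strand was known for 857 of the 1137 lncRNA genes in the alternative that uses it. No paired analysis was possible because the list has no values of single libraries.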
